A study of Arabidopsis thaliana with 6 samples.

Results

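The CESA genes of Arabidopsis thaliana encode the catalytic subunits of cellulose synthase. The 8 genes described here were selected by locus identifier, and all 8 were present among its 23640 features. They comprised 5 genes of the primary wall, CESA1 (AT4G32410), CESA2 (AT4G39350), CESA3 (AT5G05170), CESA5 (AT5G09870) and CESA6 (AT5G64740), and 3 genes of the secondary wall, CESA4 (AT5G44030), CESA7 (AT5G17420) and CESA8 (AT4G18780). RNA came from whole seedlings of the Col ecotype, 14 days old and grown in vitro, of wild-type plants (3 libraries) and of the atrx-1 mutant (3 libraries). The mutant carries 1 allele of ATRX, a SNF2-type chromatin remodeler, and its position in the gene is not stated by the labels. Libraries were made from total RNA after ribosomal RNA had been removed. The comparison asks how the seedling transcriptome differs when ATRX is disrupted. The genes are scattered over chromosomes 4 and 5. In the table (TAIR10, per the submitters' processing notes) CESA1 lies at chr4:15640620-15646665, CESA2 at chr4:18296797-18302192, CESA3 at chr5:1530174-1535414, CESA5 at chr5:3073356-3078262 and CESA6 at chr5:25881066-25886694. The secondary wall genes lie at chr5:17714645-17719723 (CESA4), chr5:5736630-5741465 (CESA7) and chr4:10312624-10316790 (CESA8). The reference annotation gives them 11 (CESA4) to 15 (CESA3) exons.

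Cellulose is made at the plasma membrane by rosette-shaped complexes that hold several different CESA subunits and extrude glucan chains into the wall. In growing cells the complex contains CESA1, CESA3 and a CESA6-like subunit, a position that CESA2, CESA5, CESA6 and CESA9 can share. In xylem vessels and fibres, which lay down a thick secondary wall inside the primary wall, a separate complex of CESA4, CESA7 and CESA8 takes over, and loss of any of these subunits gives collapsed (irregular) xylem. A seedling sampled whole therefore mixes many cells that make a primary wall with a small vascular fraction that makes a secondary wall. In such bulk samples fewer cells of a type and less RNA per cell cannot be told apart.

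All 8 proteins carry the QXXRW motif, which belongs to the catalytic site and holds the end of the growing glucan chain. The coding sequence around it is shown for each gene, so that the bases behind this shared protein motif can be compared between members. Each line gives 75 bases of the coding strand, 5′ to 3′, from the TAIR10.1 reference annotation, and the 15 bases in capitals are the codons of the motif.
CESA1: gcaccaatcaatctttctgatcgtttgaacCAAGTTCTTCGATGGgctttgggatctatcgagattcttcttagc
CESA3: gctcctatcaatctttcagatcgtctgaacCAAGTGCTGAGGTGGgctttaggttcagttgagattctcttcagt
CESA2: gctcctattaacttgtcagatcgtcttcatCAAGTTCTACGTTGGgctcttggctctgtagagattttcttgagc
CESA5: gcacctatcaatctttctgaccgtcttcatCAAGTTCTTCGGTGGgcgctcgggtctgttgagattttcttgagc
CESA6: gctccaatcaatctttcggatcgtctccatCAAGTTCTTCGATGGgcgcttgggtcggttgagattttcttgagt
CESA4: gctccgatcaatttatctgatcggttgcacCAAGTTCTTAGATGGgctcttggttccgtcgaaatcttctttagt
CESA7: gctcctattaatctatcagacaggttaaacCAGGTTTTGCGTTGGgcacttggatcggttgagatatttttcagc
CESA8: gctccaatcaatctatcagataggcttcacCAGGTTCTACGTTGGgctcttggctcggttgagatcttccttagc
Against CESA3 the other windows differed at 16 (CESA6) to 21 (CESA7) of the 75 bases, and within the motif codons at 3 to 5 of the 15 bases. Over the whole coding sequence, the 10 pairs of primary wall genes had 68.7% to 86% identical bases, and the 3 pairs of secondary wall genes 69.7% to 70.7%. The closest pair was CESA5 and CESA6 at 86%, followed by CESA2 and CESA5 at 78.7% and by CESA2 and CESA6 at 78.2%. The longest exact stretch common to any pair was 50 bases, in CESA5 and CESA6, and it is printed because it marks where their counts are hardest to separate.
CESA5 and CESA6 shared stretch: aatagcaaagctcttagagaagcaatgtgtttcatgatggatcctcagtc
No pair that joined a primary wall gene with a secondary wall gene had more than 26 bases in a row in common. The labels do not state how reads with several matches were counted, so the split of reads within CESA2, CESA5 and CESA6 is the least certain.

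The 3 secondary wall genes are known to be transcribed together in xylem, and 250 bases before the annotated start of each are shown for comparison with their values (TAIR10.1, CESA4 at chr5:17714140-17714389 on the plus strand, CESA7 at chr5:5741501-5741750 and CESA8 at chr4:10316887-10317136 on the minus strand). The tracheary element regulatory element, TERE, is a motif of genes switched on in differentiating vessels, and SMRE (ACC, then A or T, then A, then A or C, then T or C) is bound by the secondary wall regulators MYB46 and MYB83. Both strands were searched, and capitals mark the matches.
CESA4: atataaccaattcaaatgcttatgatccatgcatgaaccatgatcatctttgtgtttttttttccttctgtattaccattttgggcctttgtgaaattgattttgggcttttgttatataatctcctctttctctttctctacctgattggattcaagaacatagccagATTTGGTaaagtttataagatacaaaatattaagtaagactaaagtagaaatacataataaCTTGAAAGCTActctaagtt
CESA7: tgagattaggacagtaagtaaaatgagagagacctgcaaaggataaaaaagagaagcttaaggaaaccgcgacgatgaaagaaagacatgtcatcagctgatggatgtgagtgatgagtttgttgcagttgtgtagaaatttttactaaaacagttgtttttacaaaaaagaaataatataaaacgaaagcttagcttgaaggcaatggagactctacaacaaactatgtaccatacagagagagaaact
CESA8: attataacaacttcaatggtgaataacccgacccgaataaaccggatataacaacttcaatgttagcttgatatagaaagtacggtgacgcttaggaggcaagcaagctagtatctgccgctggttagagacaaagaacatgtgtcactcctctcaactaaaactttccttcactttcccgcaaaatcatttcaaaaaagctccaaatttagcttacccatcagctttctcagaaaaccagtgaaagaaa
TERE was matched in the window of CESA4, 20 bases before the TAIR10.1 start, and in no other of the 8 windows. It was matched in 0.368% of 27443 windows of protein-coding genes. SMRE was matched in CESA4, CESA1 and CESA5, against 29.4% of all windows, and the matches to these motifs in CESA4 do not overlap. In the count table the CESA4 entry starts at 17714645, downstream of its TAIR10.1 start at 17714390. The table entries of the other genes also start downstream of their TAIR10.1 starts. Windows and distances therefore hold for the TAIR10.1 starts only. A match is a description of letters and not of binding, and an element farther upstream would not be seen in 250 bases.

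Library totals ran from 936243 (wild-type library 2) to 14001726 counts (atrx-1 library 1), and chloroplast genes took 55.5% to 61.8% of them. The 8 CESA genes together received 354 to 6213 counts per library. ATRX averaged 5.38 ± 0.529 CPM (counts scaled to library size with TMM factors; SD, n = 3) in wild-type and 1.29 ± 0.598 CPM in atrx-1 libraries, with an edgeR adjusted p of 0.0536. Nothing in the labels says whether replicates came from different cultures, so p-values reflect the spread of these 6 samples only, which may be technical.

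Primary wall CESA genes were abundant in seedlings and kept a fixed order of mean level in both genotypes, with CESA3 at the top and CESA5 at the bottom. Levels are given as CPM per kb of gene length, so that genes can be set beside each other. CESA3 was at 37.1, 40.2 and 37.8 CPM per kb in wild-type libraries 1, 2 and 3 and at 46.1, 45.4 and 52.3 in atrx-1 libraries 1, 2 and 3. Its 3 mutant values lay above its 3 wild-type values. CESA1, whose temperature-sensitive rsw1 allele causes root swelling, was at 21.1, 22.6 and 14.3 CPM per kb in the wild-type libraries and at 22.7, 24.0 and 24.4 in the mutant libraries. Wild-type library 3 was low for CESA1, whereas wild-type library 2 nearly met the lowest mutant library. CESA6, the main partner of CESA1 and CESA3 in growing hypocotyls and roots, was at 15.6, 14.4 and 13.7 CPM per kb in the wild type and at 16.8, 18.7 and 19.0 in atrx-1, again without overlap.

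CESA2 and CESA5 also belong to the CESA6-like class and, beside their part in growing tissue, contribute to the seed coat. CESA2 was at 10.2, 13.1 and 9.68 CPM per kb in the wild-type libraries and at 13.7, 16.0 and 13.7 in the mutant libraries. CESA5 was at 7.83, 10.6 and 10.2 CPM per kb in the wild type and at 10.8, 12.2 and 8.75 in atrx-1. The groups did not overlap for CESA2 and did overlap for CESA5, where atrx-1 library 3 lay below wild-type libraries 2 and 3. In the wild type CESA3 stood at 1.98 times CESA1 (38.4 ± 1.64 against 19.3 ± 4.41 CPM per kb, SD, n = 3), and their ranges did not overlap. CESA1 and CESA6 (14.5 ± 0.994 CPM per kb) had overlapping ranges in the wild type, as had CESA2 (11.0 ± 1.84) and CESA5 (9.53 ± 1.5). In atrx-1 none of the neighbours among the primary wall genes overlapped. Averaged over the 6 libraries, the 5 genes ranked between the 79th percentile (CESA5, 79.0) and the 95th (CESA3, 95.2) of the 21709 nuclear protein-coding genes with a count.

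**Figure D1:**
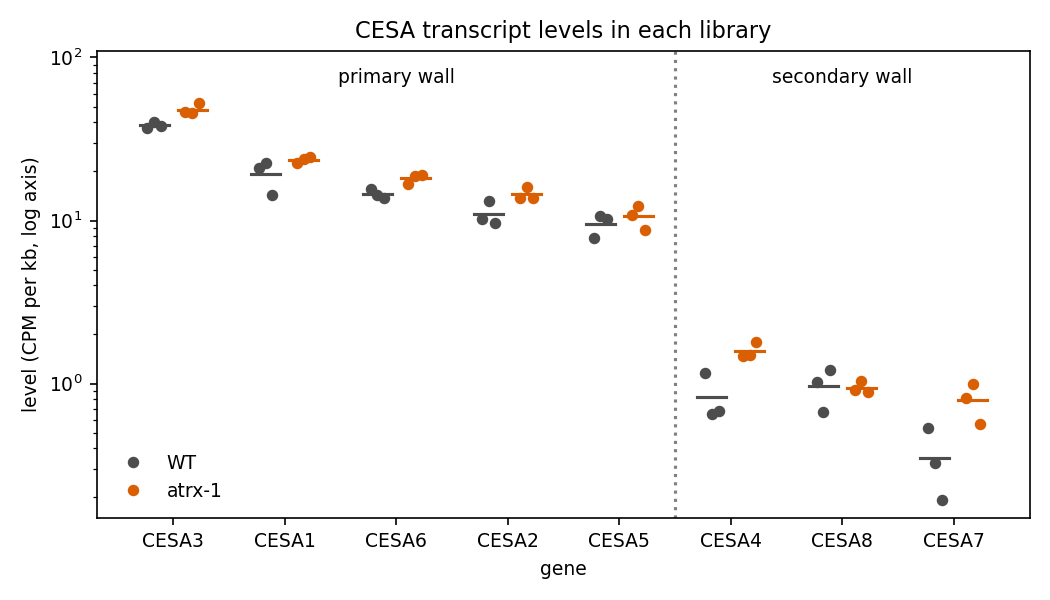
Level of each CESA gene in CPM per kb (log axis), with points for single libraries (grey, wild type, n = 3; orange, atrx-1, n = 3) and bars for group means. The primary wall genes lie between 7.83 and 52.3 CPM per kb and the secondary wall genes between 0.193 and 1.79.

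Secondary wall CESA genes were present at low levels in every library, below all 5 primary wall genes. CESA4 reads numbered 13, 2 and 7 in the wild type (libraries 1, 2 and 3) and 73, 21 and 19 in atrx-1. This corresponded to 1.16, 0.647 and 0.675 CPM per kb in the wild type and 1.48, 1.49 and 1.79 in the mutant, with all mutant values above all wild-type values. CESA7 had 6, 1 and 2 reads in the wild type and 40, 14 and 6 in atrx-1, or 0.536, 0.324 and 0.193 against 0.815, 0.999 and 0.568 CPM per kb. Its groups were separated by the narrow gap between wild-type library 1 and atrx-1 library 3. CESA8 had 11, 2 and 12 reads in the wild type and 43, 14 and 9 in atrx-1, or 1.02, 0.672 and 1.2 against 0.908, 1.03 and 0.883 CPM per kb. For CESA8 the mutant libraries fell inside the wild-type range.

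The order within the secondary wall class differed in appearance between genotypes. In the wild type CESA8 (0.964 ± 0.269 CPM per kb) and CESA4 (0.827 ± 0.287) overlapped and CESA7 was lowest (0.351 ± 0.173, SD, n = 3 each). In atrx-1 CESA4 (1.59 ± 0.176 CPM per kb) lay above CESA8 (0.942 ± 0.0814) in 3 of 3 libraries, and CESA8 and CESA7 (0.794 ± 0.216, SD, n = 3 each) had overlapping ranges. With 9 reads of CESA7 in all wild-type libraries together, counting error alone is large. CESA9, a further CESA6-like gene, and CESA10, a close relative of CESA1, are the remaining genes of the family. They had 14 and 3 reads in all 6 libraries together and were not compared.

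The secondary wall genes made up 2.87%, 1.602% and 2.36% of the summed CESA level in wild-type libraries 1, 2 and 3 and 2.83%, 2.94% and 2.67% in atrx-1 libraries 1, 2 and 3. Wild-type library 2, the shallowest, had the lowest share, and the groups overlapped (p = 0.3 in an exact permutation test, two-sided). A comparison of 3 with 3 libraries cannot reach a p below 0.1 in this way. The primary wall pool had much the same make-up in both genotypes. CESA3 took 41.5% ± 2.33 of it in the wild type and 41.7% ± 2.61 in atrx-1, and CESA1 took 20.7% ± 3.44 and 20.6% ± 0.0156 (SD, n = 3 each). The CESA6-like genes CESA2, CESA5 and CESA6 together took 36.6%, 37.7% and 39.1% in the wild-type libraries and 37.5%, 40.3% and 35.1% in the mutant libraries, which overlapped (p = 0.9, exact permutation). Within that class CESA6 contributed 41.6% ± 4.41 and 42.2% ± 3.23, CESA2 31.2% ± 2.85 and 33.4% ± 0.543, and CESA5 27.2% ± 3.58 and 24.4% ± 2.89 in wild type and atrx-1 (SD, n = 3 each). None of the 8 shares of single genes within the primary wall pool and the CESA6-like class differed beyond the spread between libraries (p from 0.4 to 1, exact permutation).

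Within the secondary wall pool the share of CESA8 was 37.5%, 40.9% and 58.1% in wild-type libraries 1, 2 and 3 and 28.3%, 29.3% and 27.2% in atrx-1 libraries 1, 2 and 3. The groups did not overlap, and the exact two-sided permutation p was 0.1, the smallest this design allows. Shares of single genes were not among the planned comparisons. In wild-type library 2 the CESA8 share rests on 2 of 5 reads. CESA4 took 42.7%, 39.4% and 32.6% in the wild type and 46.3%, 42.4% and 55.3% in atrx-1. Its groups overlapped (p = 0.2, exact permutation). CESA7 took 19.8%, 19.7% and 9.34% in the wild type and 25.4%, 28.3% and 17.5% in atrx-1. Those groups overlapped too (p = 0.3, exact permutation). The ratio of CESA4 to CESA8 was 1.14, 0.963 and 0.562 in the wild-type libraries and 1.63, 1.44 and 2.03 in the mutant libraries. This ratio was chosen after the values had been seen, and both its genes have similar lengths (3377 and 3251 nt). CESA4 supplied 22 of the wild-type reads of this pair beside 25 of CESA8, 46.8% (Wilson 95% interval 33.3% to 60.8%), and 113 of the mutant reads beside 66 of CESA8, 63.1% (55.9% to 69.9%). These intervals cover counting error only, and they overlap.

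**Figure D2:**
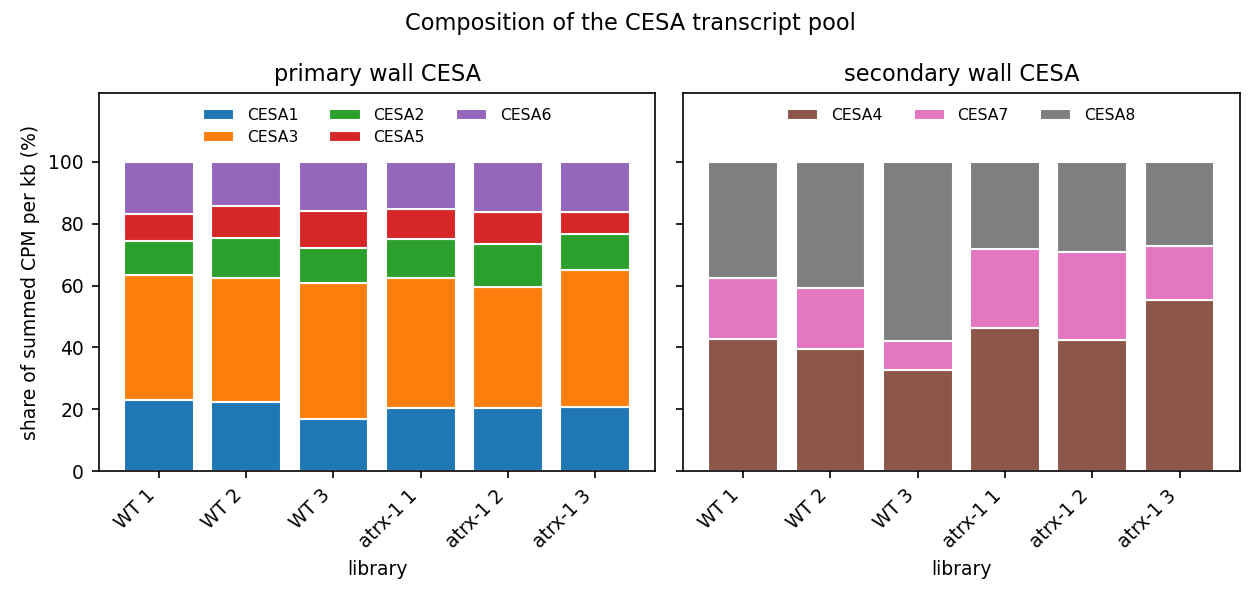
Share of each gene in the summed CPM per kb of the primary wall genes (left) and of the secondary wall genes (right), with 1 stacked bar per library in percent. The left bars look alike across the 6 libraries, and on the right the CESA8 segment runs from 27.2% to 29.3% in atrx-1 and from 37.5% to 58.1% in the wild type.

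No CESA gene passed the threshold of 0.05 on the adjusted p between atrx-1 and wild type. The edgeR quasi-likelihood test covered 13819 features, of which 0.116% were called, and 7 of the 8 CESA genes, since CESA7 was removed by the low-count filter. Of these 7, CESA4 and CESA2 had an unadjusted p under 0.05 with higher values in atrx-1, against 8.64% of all tested features in that direction. Without the filter 2.57% of the features were called and again no CESA gene. DESeq2 called 0 members as well, against 3.9% of the features to which it gave an adjusted p, and it gave none to CESA4, CESA7 and CESA8. At an unadjusted p under 0.05 it had 0 of the 8 members, against 7.6% of features. In the authors' deposited table the adjusted p was at least 0.176 for the 5 primary wall genes and blank for the 3 secondary wall genes, where 7.06% of the features with a value were under 0.05. Its unadjusted p was under 0.05 with a higher mutant value for CESA1, CESA3, CESA6 and CESA4, against 4.36% of its features.

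Among the core subunits of the primary wall, CESA3 had a log2 fold change of 0.32 ± 0.19 (SE; 95% interval -0.08 to 0.72, edgeR adjusted p = 0.363) and CESA1 one of 0.30 ± 0.21 (SE; -0.15 to 0.76, edgeR adjusted p = 0.455). In the CESA6-like class, CESA2 was at 0.42 ± 0.19 (SE; edgeR adjusted p = 0.251), CESA6 at 0.32 ± 0.18 (SE; adjusted p = 0.355) and CESA5 at 0.18 ± 0.20 (SE; adjusted p = 0.669). The upper ends of the 95% intervals of these 5 genes ran from 1.54-fold (CESA5) to 1.79-fold (CESA2) higher in atrx-1. In the secondary wall class CESA4 had a log2 fold change of 0.81 ± 0.34 (SE; 95% interval 0.07 to 1.55, edgeR adjusted p = 0.213) and CESA8 one of -0.15 ± 0.34 (SE; -0.89 to 0.58, adjusted p = 0.85). CESA7, fitted without the low-count filter, was at 1.18 ± 0.56 (SE; 0.05 to 2.30, edgeR adjusted p = 0.295). In the authors' deposited table the log2 fold changes were 0.38 for CESA1, 0.36 for CESA2, 0.29 for CESA3, 0.04 for CESA5, 0.35 for CESA6, 0.63 for CESA4, 0.60 for CESA7 and -0.12 for CESA8. The labels do not say how the authors estimated them.

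The fitted value was above 0 for 6 of the 7 tested CESA genes, all but CESA8, where 51.2% of all tested features were above 0. Without the filter it was above 0 for 7 of 8, against 51.3% of features. The median log2 fold change was 0.32 over the 5 primary wall genes and 0.33 over CESA4 and CESA8, beside 0.01 over all tested features. Without the filter, the median over the 3 secondary wall genes was 0.86. In 5 of the 7 tested genes every mutant library lay above every wild-type library, against 12.2% of all tested features, or 23.6% when either direction is counted. CESA7 showed the same separation, against 9.08% of features with any count. For CESA1 that separation was as small as 88.7 against 88.5 CPM. The summed level of all 8 genes was 94.9 ± 7.48 CPM per kb in the wild type and 118 ± 4.33 in atrx-1 (SD, n = 3 each). It was 1.24-fold higher in the mutant without overlap (p = 0.1 by exact permutation, the smallest possible). The trend of genotype on gene length, described below, was not removed from this sum.

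**Figure D3:**
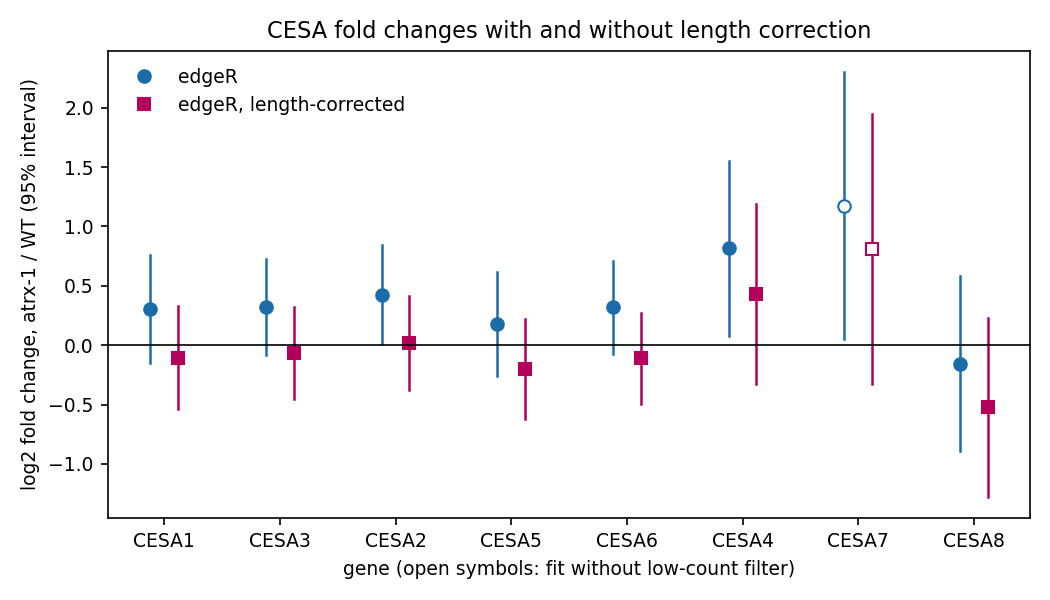
Log2 fold change of atrx-1 over wild type for each CESA gene, with points for the edgeR estimate, squares for the estimate after length correction and lines for 95% intervals (open symbols: CESA7, fitted without the low-count filter). The points of the primary wall genes lie between 0.18 and 0.42 and the squares between -0.20 and 0.02.

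CESA genes are long, with 3251 nt (CESA8) to 4105 nt (CESA6) in the table, and gene length moved with genotype in these libraries. Across 13682 tested nuclear genes, which are not independent replicates, length and log2 fold change were related with a Spearman rho of 0.575. The median of tested nuclear genes was -0.49 in the shortest of 10 length groups and 0.43 in the longest. Among the 649 tested nuclear genes with a length between that of CESA8 and that of CESA6, members included, 90.4% had a value above 0, and the median was 0.41 with quartiles of 0.21 and 0.61. In that length range the mutant libraries all lay above the wild-type libraries for 39.0% of the genes, and 31.9% had an unadjusted p under 0.05 with a higher value in atrx-1. Of the primary wall genes CESA2 (0.42) stood next to that median and the other 4 (0.18 to 0.32) below it. CESA5 at 0.18 and CESA8 at -0.15 lay below the lower quartile, whereas CESA4 at 0.81 stood above the upper one.

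When the smooth trend of each library on gene length was removed, the primary wall values came close to 0. CESA1 was then at -0.10 ± 0.20, CESA3 at -0.06 ± 0.18, CESA2 at 0.02 ± 0.18, CESA5 at -0.20 ± 0.19 and CESA6 at -0.11 ± 0.18 (log2 fold change ± SE). The smallest edgeR adjusted p among these 5 was 0.763, for CESA5. CESA4 was at 0.43 ± 0.35 (SE; 95% interval -0.32 to 1.19, edgeR adjusted p = 0.704) and CESA8 at -0.52 ± 0.35 (SE; -1.28 to 0.23, adjusted p = 0.628). CESA7, without the filter, was at 0.81 ± 0.57 (SE; adjusted p = 0.69). The removed trend amounted to between 0.35 (CESA8) and 0.42 (CESA6) on the log2 scale between the genotypes. No CESA gene had an unadjusted p under 0.05 after this correction, against 4.38% of the features with a higher mutant value and 10.8% in either direction. The value was above 0 for CESA2 and CESA4, 2 of 7, against 48.4% of features. With the correction and no filter it was above 0 for CESA2, CESA4 and CESA7, 3 of 8, against 47.3%.

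**Figure D4:**
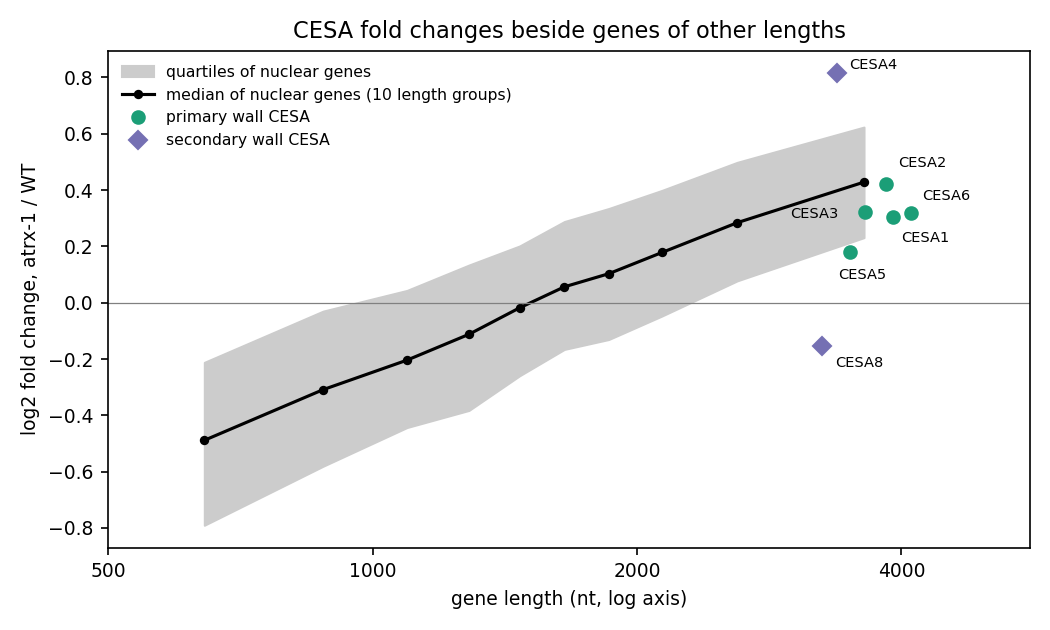
Log2 fold change of atrx-1 over wild type against gene length (log axis), with the median (line) and quartiles (band) of tested nuclear genes in 10 length groups, and the tested CESA genes as circles (primary wall) and diamonds (secondary wall). The line ends at 0.43, at the median length of the longest group (3626 nt). The primary wall genes have values near or under that level, and all but CESA5 are longer than 3626 nt. CESA4 (0.81) and CESA8 (-0.15) lie on either side of the line.

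Genes that work beside the CESA subunits showed no call. Of 12 listed partners of the cellulose synthase complex 9 were tested, 0 were called in edgeR, and 5 were above and 4 below 0 (median log2 fold change 0.01). After length correction 2 were above and 7 below 0 (median -0.17). The member with the smallest p was CSI1, which links the complex to cortical microtubules, with a level of 34.9 ± 7.01 CPM in wild-type and of 46.8 ± 1.8 CPM in mutant libraries (SD, n = 3 each). Its log2 fold change was 0.45 ± 0.20 (SE; edgeR adjusted p = 0.234), and it was at -0.12 after length correction. Of 8 listed genes for the supply of UDP-glucose, the substrate of the CESA enzymes, 6 were tested and 0 called. Of these 6, 3 were above and 3 below 0 (median -0.07). After length correction 2 were above and 4 below 0 (median -0.30). The smallest p belonged to the sucrose synthase gene SUS3, with a log2 fold change of 0.37 ± 0.25 (SE; edgeR adjusted p = 0.461), and it was at 0.04 after length correction.

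Cellulose synthase-like (CSL) genes encode related glycosyltransferases that make other wall polysaccharides. Of 30 listed CSL genes 16 were tested, 0 were called, and 10 were above and 6 below 0 (median log2 fold change 0.16). At an unadjusted p under 0.05, 1 was higher and 2 were lower in atrx-1. CSLB4 had the smallest p, averaging 20.9 ± 7.29 CPM in wild-type and 34.6 ± 7.32 CPM in mutant libraries (SD, n = 3 each), and a log2 fold change of 0.84 ± 0.26 (SE; edgeR adjusted p = 0.112). The genes on the other side were the mannan synthase relative CSLA3 (-0.93 ± 0.37, SE) and CSLC4 (-0.76 ± 0.29, SE), whose product makes the glucan backbone of xyloglucan. CSLA3 was at 25.6, 6.56 and 9.12 CPM in the wild-type libraries and at 7.34, 8.65 and 8.61 in the mutant libraries, so that wild-type library 1 stood apart and the groups otherwise overlapped. Without that library its log2 fold change was -0.084, and that of CSLC4 was -0.28. With the length correction 7 of the 16 were above and 9 below 0.

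Other genes of the secondary wall programme were mostly too low to be tested. Of 16 genes for xylan, lignin and wall proteins of the secondary wall 3 passed the low-count filter, 0 were called, and 2 were above and 1 below 0 (median log2 fold change 0.04). IRX14, a xylan synthesis protein, had the smallest p, with a log2 fold change of 0.45 ± 0.42 (SE; edgeR adjusted p = 0.602), which ran from 0.04 without wild-type library 3 to 1.31 without wild-type library 1. After length correction the counts were again 2 and 1 (median 0.25). None of the 11 listed transcription factors of the secondary wall, MYB46 and VND7 among them, passed the filter. The table held 9 of them. Without the filter 1 of these 9 was above and 8 were below 0 (median -0.51), and 6 had no read in some libraries. Their group means were at most 1.13 CPM, and these values were not corrected for length. These 9 genes are 1047 to 1447 nt long. In the length groups with median lengths of 1094, 1287 and 1470 nt, the medians of tested nuclear genes were -0.20, -0.11 and -0.02. Without the filter the 16 wall genes were 9 above and 7 below 0 (median 0.08), where 51.3% of features were above 0. The summed level of the 16 wall genes was 17.7 to 19.5 CPM per kb in the wild type and 15.9 to 19.2 in atrx-1.

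Markers of tissue make-up are given beside these values. Of 5 markers of xylem vessels 3 were tested and 0 called, with 1 above and 2 below 0, and their summed level was 12.6 to 26.6 CPM per kb in the wild type and 12.5 to 14.98 in atrx-1. BFN1, a nuclease gene listed here as a vessel marker, averaged 5.004 ± 2.46 CPM in wild-type and 1.67 ± 0.392 CPM in mutant libraries (SD, n = 3 each). Its log2 fold change was -1.58 ± 0.39 (SE; edgeR adjusted p = 0.0752), or -1.03 without wild-type library 1. The vessel protease XCP1 was at -0.83 ± 0.30 (SE; edgeR adjusted p = 0.159), or -0.58 without wild-type library 1. The other tested vessel marker, XCP2, was at 0.01 ± 0.31 (SE; edgeR adjusted p = 0.992) and at 0.11 after length correction. After length correction the vessel markers were again 1 above and 2 below 0 (median -0.74). Of 6 root markers 4 were tested, 0 were called and all 4 were below 0 (median -0.84), with a summed level of 23.7 to 37.2 CPM per kb in the wild type and 10.05 to 24.8 in atrx-1. The endodermal gene CASP1 had the smallest p of these, with a log2 fold change of -0.86 ± 0.30 (SE; edgeR adjusted p = 0.151), and after length correction all 4 were still below 0 (median -0.63). All 4 phloem markers were tested and above 0 (median 0.22), with a summed level of 34.0 to 50.2 CPM per kb in the wild type and 47.0 to 49.5 in atrx-1, and AHA3 was at 0.47 ± 0.20 (SE; edgeR adjusted p = 0.226). After length correction 3 were above and 1 below 0 (median 0.09), and AHA3 was at 0.13. Of 4 leaf mesophyll markers 1 was above and 3 below 0 (median -0.12), with sums of 6141 to 10073 CPM per kb in the wild type and 7532 to 8472 in atrx-1, and RCA was at 0.43 ± 0.22 (SE; edgeR adjusted p = 0.312). After length correction the direction of this count turned round, with 3 above and 1 below 0 (median 0.04). No marker of these 4 lists was at 0 in all libraries, the root hair gene RSH2 was at 0 in some, and the part of tissue make-up in the CESA values was not tested.

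**Figure D5:**
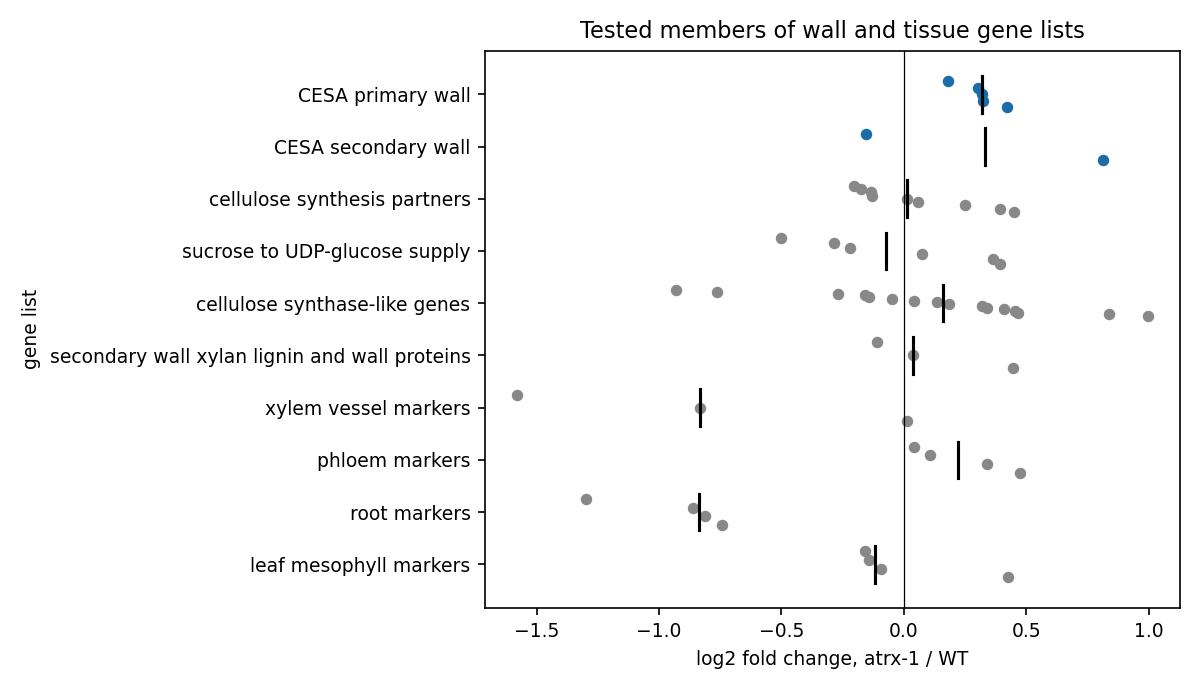
Log2 fold change of atrx-1 over wild type for the tested genes of each list, with 1 point per gene, the CESA genes in blue and a black bar at the median. The primary wall CESA genes lie close together between 0.18 and 0.42, CESA4 and CESA8 lie apart, and the tested root markers are all below 0.

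The genes whose pattern over the 6 libraries was most like that of the CESA genes were sought among 6887 tested nuclear genes with a mean of at least 10 CPM. For the primary wall the pattern was the mean of the centred log2 CPM of the 5 genes. The closest was the callose synthase gene CALS3 (Pearson r = 0.999, 6098.5 nt), followed by AT3G58640 (0.993), PRP39 (0.987), LCAT3 (0.987) and AT5G11720 (0.986). The members' own r with this pattern ran from 0.492 (CESA5) to 0.986 (CESA2). For the secondary wall the pattern was the mean of CESA4 and CESA8, and PI4KB1 (0.991), NMT1 (0.991), BSL1 (0.991), ACR9 (0.985) and AT4G34881 (0.984) came closest. CESA4 itself had r = 0.921 with it and CESA8 r = 0.481. Each member, primary or secondary, is part of the pattern it was compared with, so its r is not independent of it. The secondary wall pattern was at -0.56 in wild-type library 2 and between -0.17 and 0.27 in the other libraries. In wild-type library 2 CESA4 and CESA8 had 2 reads each. Of the 6887 genes, 42 reached an r of at least 0.95 with the primary wall pattern and 61 with the secondary wall pattern. These values describe 6 libraries that differ in depth and in their length trend.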

How the data were processed

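The data were RNA-seq counts of 3 wild-type and 3 atrx-1 seedling libraries, grouped by their titles. The submitters' processing notes name the TAIR10 build and, without roles or order, HTSeq 0.6.1, Bowtie2 2.1.0, TopHat2 2.0.14, CASAVA 1.8.2, DESeq and DESeq2 1.6.3. Per the file headers, the authors deposited raw read counts per gene, a normalized signal per library and that signal per kb of gene length. Gene lengths were obtained by dividing the former signal by the latter. The authors' deposited log2 fold changes and p-values were used only as such. The labels state neither annotation version nor strand setting.

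Counts were tested with edgeR 4.0.16 in R 4.3.3: TMM scaling, default filterByExpr (minimum count 10, minimum total 15), quasi-likelihood F test for genotype without covariates, and Benjamini-Hochberg adjustment over all 13819 features kept (threshold 0.05). Standard errors and intervals come from the F statistic. CPM values use the same scaling. The length correction removed a lowess trend (span 0.3) of log2 CPM on log2 length per library, in nuclear features, as an offset. Single shares, sums and ratios were compared by exact permutation tests. The procedure was tested on simulated data.

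No 2 replicates were copies (mean chi-square per feature at least 3.05, where sampling alone gives 1). Reference sequences and overlaps are those of TAIR10.1. In it 5 of the 8 genes, CESA1, CESA3, CESA4, CESA7 and CESA8, overlap a neighbour, and by the table's own coordinates CESA4 and CESA7 do. The counts of CESA4 and CESA7 may therefore include reads of AT5G44040 and AT5G17410, or lack reads from the shared stretches. Coding identities come from global alignments (Biopython 1.88).

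All members were named, and from each other list the members past the threshold or else the one with the smallest p. CSLA3, CSLC4, XCP1, XCP2, RSH2, MYB46 and VND7 were named after their values were seen. The members and lists were chosen with earlier results of these data known. Alternatives were DESeq2 1.42.0, RLE scaling, nuclear features only, no filter and a stricter one (mean of at least 5 CPM, with 1 CPM or more throughout either genotype), the replicate number as a block, length correction, and leaving out each library (for genes of the other lists, added after the data were seen).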

Additional observations from a re-analysis of the deposited data

How the results depend on the processing

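No CESA gene was called under any alternative fitted. The smallest adjusted p was 0.138, without the filter and without wild-type library 1, and with the filter it was 0.141, for CESA4 without the same library. Over all features 16 were called, against 38 with RLE scaling, 592 without the filter, 220 in DESeq2, 34 with the block, 0 with the length correction, 378, 104 and 119 without wild-type library 1, 2 or 3, and 0, 0 and 3 without atrx-1 library 1, 2 or 3. With RLE scaling, nuclear features only, DESeq2, no filter, the stricter filter (which left no secondary wall gene) and the replicate block, the primary wall genes all stayed above 0. The length correction changed the picture. Genes above 0 then numbered 2 of 7, also 2 with the replicate block added, and 3 of 8 without the filter, a setting added after the data were seen. In the same order the primary wall median was -0.105, -0.0924 and -0.0538, CESA1 was at -0.105, -0.0924 and -0.0538, CESA3 at -0.0635, -0.0657 and -0.0173, CESA5 at -0.20, -0.22 and -0.15, and CESA6 at -0.11, -0.11 and -0.0556. The secondary wall median, 0.33 over CESA4 and CESA8, was -0.045 with the length correction and -0.0096 with the block added. Where CESA7 enters, it was 0.49 with the length correction and no filter, 0.87 in DESeq2 and 0.86 without the filter.

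Leaving out 1 library at a time, genes above 0 numbered 6 to 7, the primary wall median ran from 0.27 to 0.38 and the secondary wall median from 0.29 to 1.2, the highest without wild-type library 1, where CESA7 passes the filter. CESA4 ran from 0.58 to 1.2, and CESA7 without the filter from 0.80 (without wild-type library 3) to 1.86 (without wild-type library 1). CESA1 was at 0.12 and CESA5 at 0.05 at their lowest. The mutant minus wild-type difference in the secondary wall share ran from 0.20 percentage points (without wild-type library 2) to 0.83 (without wild-type library 1). That in the CESA6-like share, -0.167 with all libraries, ran from -1.51 to 1.11 and changed sign without wild-type library 3 (0.48) and without atrx-1 library 3 (1.11).

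Equal replicate numbers did not pair the libraries: deviations from the group means correlated at 0.0644, 0.0571 and -0.0791. With the replicate block CESA4 was at 0.84 (adjusted p = 0.325), CESA2 at 0.41, the primary wall median at 0.32, and the share differences at 0.538 (exact p = 0.5) and -0.167 (exact p = 1) percentage points. The depth of wild-type library 2, with 5 reads over the 3 secondary wall genes, limits every statement on them.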
